A study of Sus scrofa with 20 samples.

Results

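Transcripts of red blood cells were followed in adrenal glands from 20 German Landrace pigs. Of these, 10 were high-reactive (HR) and 10 low-reactive (LR) in their coping behavior. The 6 genes HBB, HBM, AHSP, ALAS2, SLC4A1 and EPB42 were chosen by symbol as genes of the erythroid lineage, and all 6 were found on the array, with 8 of the 47722 probe sets tested (a probe set is a group of array probes summarised to a single value). HR and LR pigs were extremes of early life coping behavior, measured in the backtest, in which a piglet is held on its back and its struggling is recorded, and they also differed in their haplotype at a coping behavior QTL on chromosome 12. The labels give both groups as adult pigs without a treatment, while sex, litter and processing batch were not given, and their part in any difference was not tested. The glands were collected after electronarcosis and exsanguination and frozen. Labelled cDNA amplified from their RNA was hybridized to Affymetrix Porcine Snowball arrays, 1 array per animal.

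Mature mammalian red blood cells have no nucleus and make no new RNA, while reticulocytes, the young red blood cells of the circulation, still carry transcripts of globins, heme synthesis and membrane proteins. The adrenal gland is a densely perfused organ in which blood runs through sinusoids from the cortex to the medulla, and erythroid transcripts are used as a gauge of the blood that remains in a tissue sample. In an RNA extract of a tissue, fewer red blood cells and less RNA per red blood cell cannot be told apart. Hemoglobin is a tetramer of alpha-like and beta-like globin chains, each with a heme group, and the band 3 complex holds the membrane of the red blood cell to its spectrin skeleton.

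Values are RMA log2 values, a scale on which a step of 1 is a doubling of signal, and since probes differ in their affinity, a place by level among genes describes signal and not the amount of transcript. The array medians lay between 4.74 and 4.81. The tissue label fits the markers of the gland: the mean over 7 measured genes of the adrenal cortex was 12.7 to 13.2 in HR and 13.0 to 13.1 in LR animals, and that over 7 genes of the medulla was 9.32 to 10.1 in HR and 8.93 to 10.2 in LR animals. Animal HR2835 stood apart, with a mean correlation of 0.938 to the other arrays, against 0.977 to 0.983 for the other 19 animals, and the results for the members and lists are also given without it where it changed their sign or moved them most. The 69 background control probe sets had means from 1.31 to 8.14, which among the members only the first HBB probe set exceeded. This wide range also held the median of all probe set means, 4.78.

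HBB, the beta-globin chain of adult hemoglobin, lies on chromosome 9 (9:4800683-4801941, Sscrofa11.1) near HBE1 and further protein-coding loci without a gene name. Its log2 value was lowest at 8.56, had a median of 9.17 and was highest at 10.16 in HR animals, against 8.16, 9.02 and 9.30 in LR animals. The groups overlapped, with 3 HR animals above the highest LR animal and with LR2594 the lowest of all. From the lowest to the highest animal the signal spanned 4.0-fold, and the spread within groups (pooled SD 0.48) was greater than that of 88.6% of all probe sets. The difference HR minus LR was 0.28 (SE 0.20, 95% interval -0.13 to 0.69). A second HBB probe set of lower level spanned 5.55 to 6.05 in HR and 5.55 to 5.95 in LR animals, and its difference was 0.08 (SE 0.08). The 2 HBB probe sets correlated over the 20 animals with r = 0.45 (permutation p = 0.0448, rho = 0.46, p = 0.0431), and r was 0.39 when the 2 most distant animals were left out. Near-identical globin copies can share probes. Whether the neighbouring loci are such copies, and which locus a probe set reads, was not tested.

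HBM, an alpha-like globin of the alpha-globin cluster on chromosome 3 (3:41489312-41490110), moved over a much smaller range. It was lowest at 5.72, had a median of 5.98 and was highest at 6.16 in HR animals, against 5.83, 5.91 and 6.30 in LR animals. The groups lay over each other, with the lowest value in HR2915 and the highest in LR2793. The difference was -0.01 (SE 0.08, 95% interval -0.18 to 0.16), and the spread within groups was greater than that of 10.1% of all probe sets. Without HR2835 the difference turned to 0.02 (SE 0.08).

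AHSP, the chaperone that binds free alpha-globin until it pairs with a beta chain, lies on the same chromosome (3:17059340-17060343). It was lowest at 2.83, had a median of 3.29 and was highest at 3.60 in HR animals, against 2.64, 2.90 and 3.77 in LR animals. The highest value of all belonged to LR2016, and 9 of 10 HR animals lay above the LR median. HR animals averaged 3.28 ± 0.24 and LR animals 2.99 ± 0.35 (SD, n = 10 each), a difference of 0.29 (SE 0.13, 95% interval 0.02 to 0.56). The signal of AHSP was low, with 27.6% of all probe sets below it, and the table gives no detection call.

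ALAS2, the erythroid enzyme of the first and rate-limiting step of heme synthesis, lies on the X chromosome (X:47871519-47896041). It was lowest at 5.35, had a median of 5.60 and was highest at 6.74 in HR animals, against 4.82, 5.37 and 5.72 in LR animals. The groups overlapped, with 4 HR animals above the highest LR animal and 8 of 10 above the LR median. HR animals averaged 5.76 ± 0.46 and LR animals 5.35 ± 0.29 (SD, n = 10 each), a difference of 0.41 (SE 0.16, 95% interval 0.08 to 0.75). Without HR2797, the highest animal, the difference was 0.30 (SE 0.14).

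SLC4A1 encodes band 3, the chloride and bicarbonate exchanger of the red blood cell membrane, and lies on chromosome 12 (12:18957813-18975266), where it overlaps the long non-coding RNA LOC110255996. It was lowest at 4.15, had a median of 4.36 and was highest at 4.91 in HR animals, against 3.97, 4.28 and 4.56 in LR animals. HR2978 was highest and LR2594 lowest, and the difference was 0.12 (SE 0.10, 95% interval -0.08 to 0.31), or 0.06 without HR2978. A second SLC4A1 probe set of lower level (mean 2.29 in HR and 2.28 in LR animals) correlated with it at r = 0.27 (permutation p = 0.254, rho = -0.08, p = 0.753).

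EPB42, or protein 4.2, binds band 3 on the inner face of the membrane, and its gene (1:128231863-128253696) overlaps the neighbouring gene CCNDBP1. It was lowest at 3.66, had a median of 3.92 and was highest at 4.19 in HR animals, against 3.65, 3.95 and 4.09 in LR animals. HR2797 was again highest and LR2594 lowest, and the group means differed by 0.004 (SE 0.07, 95% interval -0.15 to 0.16). Only 3.62% of all probe sets varied less within groups. Without HR2835 the EPB42 difference was 0.034 (SE 0.07).

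**Figure D1:**
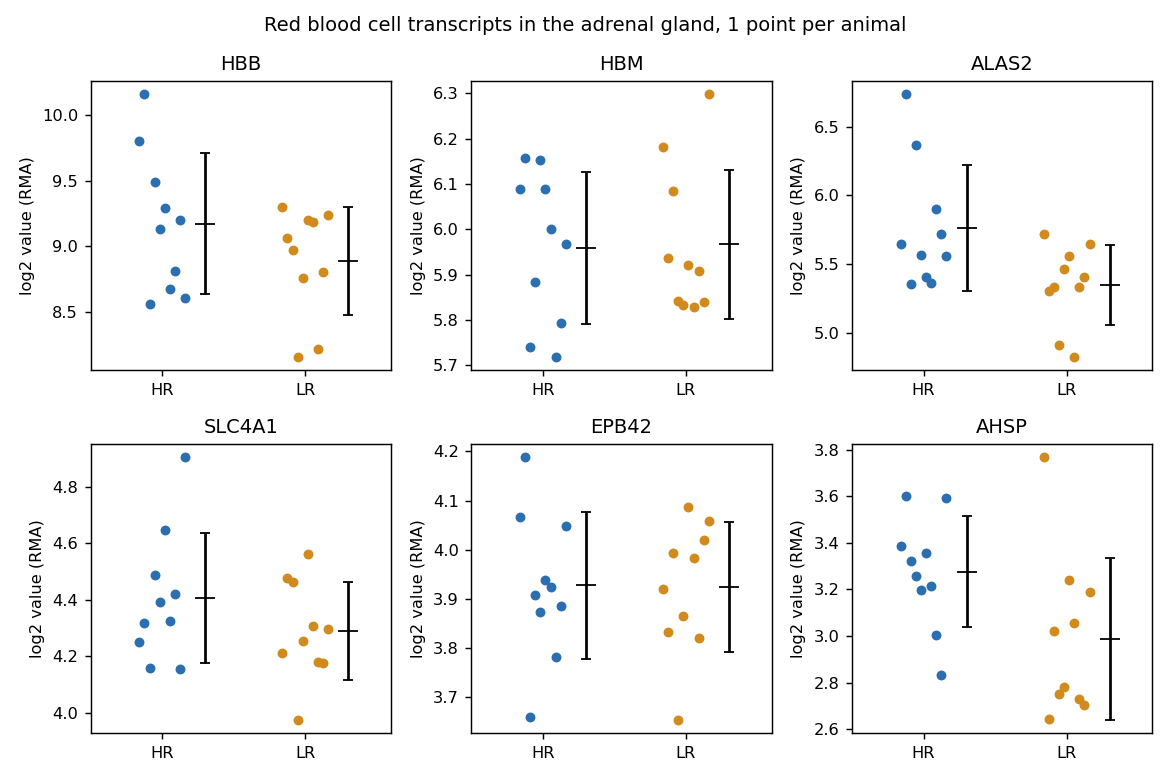
RMA log2 value of each of the 6 genes (vertical axis, own scale in each panel) in HR (left, blue) and LR animals (right, orange), 1 point per animal, with the mean and SD of 10 animals beside the points. The groups overlap in every panel, and the upper values of HBB (10.16) and ALAS2 (6.74) both belong to HR2797.

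To ask whether HR and LR glands differed in red blood cell transcripts, all 47722 probe sets were compared in limma with Benjamini-Hochberg adjustment. ALAS2 and AHSP were higher in HR at an unadjusted p only, HBB and SLC4A1 were higher in mean without reaching it, and the group means of HBM and EPB42 lay close to each other. None of the 6 genes passed the adjusted threshold of 0.05, with adjusted p = 1.0 for each, and 0 of all 47722 probe sets (0%) did. At an unadjusted p under 0.05, 2 of 6 members were higher in HR, against 2.01% of all probe sets, and 0 were lower, against 1.64%. For ALAS2 the unadjusted limma p was 0.0180 and the two-sided permutation test gave p = 0.0203. For AHSP these were 0.0359 in limma and 0.0445 by permutation, and over left-out animals its limma p ran from 0.00224 to 0.0698, above 0.05 without HR2593, HR2797, HR2897, HR2978, LR2562, LR2594, LR2611, LR2789 or LR2790. That of ALAS2 ran from 0.00987 to 0.0395 over left-out animals. In mean 5 of 6 members were higher in HR, against 50.9% of all probe sets, but the sign of HBM and EPB42 turned when single animals were left out. The HBB difference was 0.17 without HR2797 and 0.35 without HR2835. The members share animals and vary together, so that they are not separate observations of the groups.

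**Figure D2:**
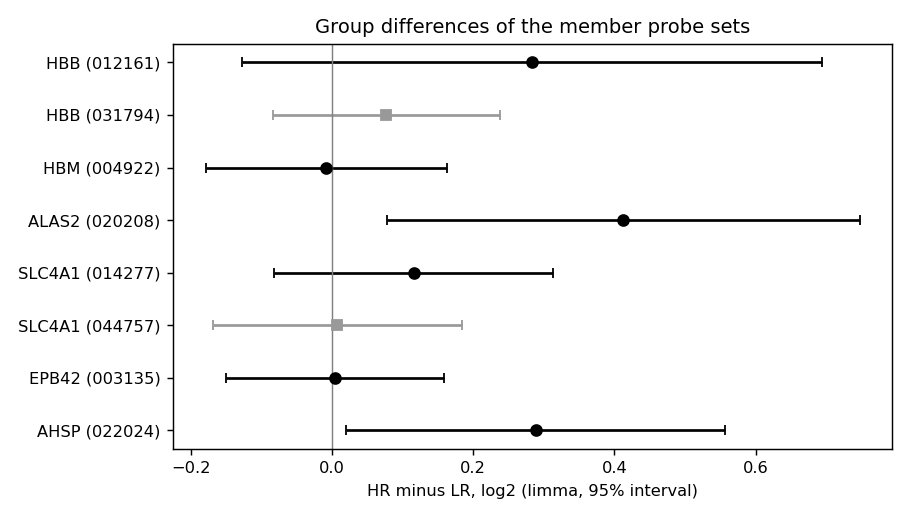
Difference HR minus LR in log2 units (horizontal axis) with its 95% interval from limma for the 8 member probe sets, with the array's number for each in brackets. Black circles stand for the gene and grey squares are second probe sets. The intervals of ALAS2 (0.08 to 0.75) and AHSP (0.02 to 0.56) lie above 0, and the others include it.

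A red cell index was formed for each animal as the mean over the 6 genes of the log2 value minus that gene's mean over all animals. It had a mean of 0.09 ± 0.21 in HR and -0.09 ± 0.20 in LR animals (SD, n = 10 each). In HR animals it was lowest at -0.19, had a median of 0.09 and was highest at 0.53, against -0.44, -0.12 and 0.19 in LR animals. The groups overlapped, while 9 of 10 HR animals lay above the LR median and 3 above the highest LR animal. The difference of 0.18 was smaller than the SD within either group. No test was made of it, since a score over the members was given no p, and the genes were chosen with earlier results known. The difference was 0.098 with the median of the members in place of the mean and 0.28 with HBB alone. HBB and ALAS2 made up 38.5% and 29.9% of the summed variance of the members and AHSP 17.3%, so that the index mostly carried these 3 genes.

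The animals at both ends of the index were high or low in most members, which its make-up from these same 6 genes favours. HR2797, first in the index at 0.53, was highest in HBB, ALAS2 and EPB42, with ranks 2 in AHSP and 3 in HBM, but 10 in SLC4A1. HR2857 followed at 0.24, with ranks 2 in ALAS2 and 3 in HBB, and then HR2593 at 0.21, with ranks 2 in HBB and 3 in EPB42. In LR animals LR2016 was highest at 0.19, with ranks 1 in AHSP and 2 in HBM. LR2594 was last at -0.44 and lay under the mean in all 6 genes, as did LR2611 and LR2789. Not every animal had its members in step: HR2978 had rank 1 in SLC4A1 and 3 in AHSP but 17 in HBB, and HR2915 had rank 3 in ALAS2 but was last in HBM. HR2835 had an index of -0.19, and only its AHSP lay above the mean.

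**Figure D3:**
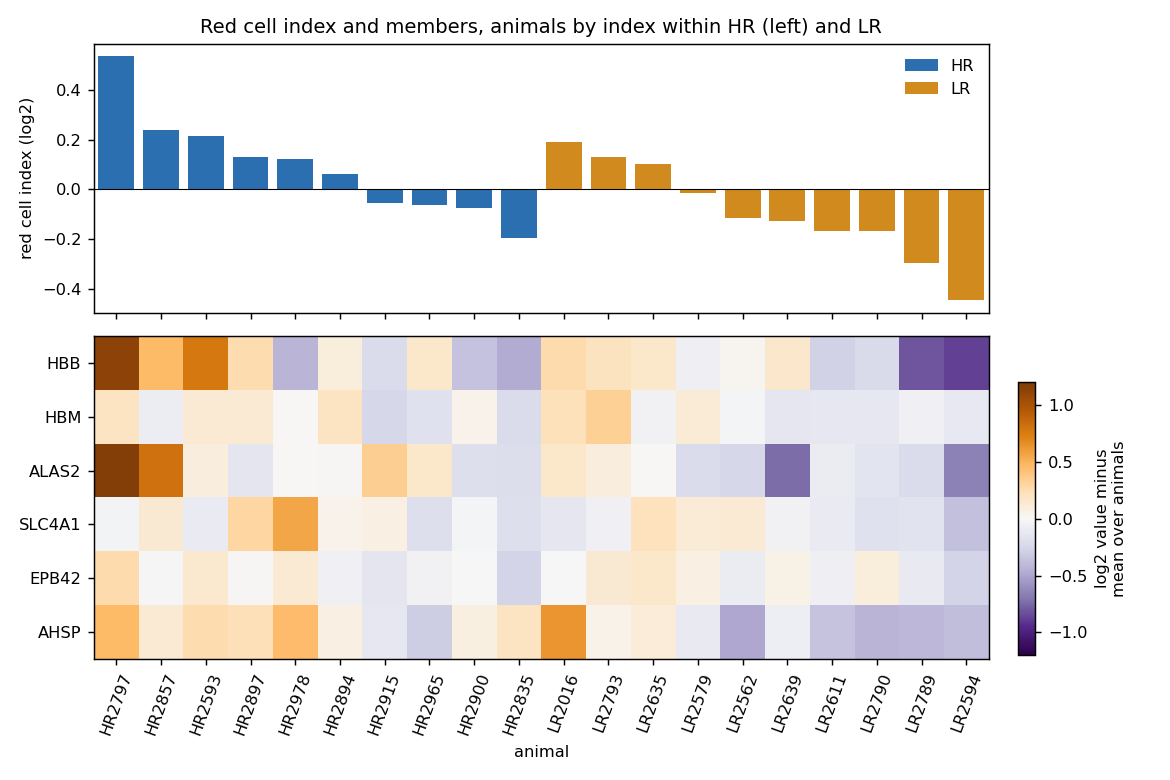
Red cell index of each animal in log2 units (bars, upper panel) and the log2 value minus the mean over all animals of each member (colour, lower panel), with HR animals on the left and LR animals on the right, each ordered by the index. HR2797 has the highest index at 0.53 and LR2594 the lowest at -0.44, and HBB, ALAS2 and AHSP carry most of the colour.

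Over the animals, HBB varied with EPB42 and with ALAS2, and the other pairs did not pass the adjustment. All 15 pairs had a positive Pearson's r, with a median of 0.44 and a range from 0.19 to 0.68, whereas the median r of a member with all other genes lay between 0.00 and 0.13. Between 50.34% (AHSP) and 61.55% (EPB42) of all genes had a positive r with a member. The 95th percentile of r over all genes was 0.36 for AHSP and 0.56 for EPB42, the lowest and highest of the members. Of the 15 pairs 7 reached an unadjusted permutation p under 0.05, and after Benjamini-Hochberg adjustment over 45 relations (15 pairs in all, HR and LR animals) 2 passed. HBB correlated with EPB42 at r = 0.68 (permutation p = 0.00091, adjusted p = 0.0410, rho = 0.59, p = 0.0064). HBB correlated with ALAS2 at r = 0.66 (permutation p = 0.00208, adjusted p = 0.0468, rho = 0.62, p = 0.0039). With the 2 animals most distant from the HBB median left out these were 0.46 and 0.35, and neither passed. Leaving out extreme animals also narrows the range of HBB, which by itself lowers r. It therefore cannot tell whether the calls rested on those animals. Of the 20 animals, leaving out each of 14 in turn also brought the number of passing pairs to 0 or 1. Without HR2797, r was 0.58 for HBB with EPB42 and 0.48 for HBB with ALAS2 (adjusted p = 0.196 for both). Among all other genes, 99.8% had a lower r with HBB than EPB42 had, and 99.6% a lower one than ALAS2. Other pairs stood out less: 63.0% of genes had a lower r with HBB than SLC4A1 had, and 77.3% a lower one with HBM than ALAS2 had.

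The globin partners followed with r = 0.51 for HBB and HBM, 0.51 for HBB and AHSP, and 0.53 for HBM and AHSP, and HBM and EPB42 had 0.56. The adjusted permutation p was 0.112 for each of these 4. SLC4A1 was the gene least in step, with 0.19 to HBB, to HBM and to ALAS2, 0.39 to AHSP and 0.41 to EPB42, the last being its partner in the band 3 complex (adjusted permutation p from 0.154 to 0.518). Against the mean of the other 5 members, r was 0.73 for HBB, 0.69 for EPB42, 0.63 for AHSP, 0.61 for ALAS2, 0.53 for HBM and 0.31 for SLC4A1. EPB42 had the narrowest range of the 6 genes, 1.45-fold over all animals, and its signal lay within the range of the background controls. Genes outside the erythroid lists followed it more closely than HBB (r = 0.68), among them ATOH1 (0.895) and CDK20 (0.81).

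The median r of the 15 pairs was 0.47 in HR and 0.49 in LR animals, with 13 positive in HR and 15 in LR. For each pair, r was also taken without the 2 animals most distant from the median of 1 of its genes. The median was then 0.10 in HR and 0.29 in LR animals, with 12 positive in each. By Spearman, over all animals of a group, it was 0.26 in HR and 0.52 in LR animals. In HR animals HBM and EPB42 (0.73), HBB and ALAS2 (0.71) and HBB and EPB42 (0.68) were highest, while SLC4A1 had -0.21 to HBB and -0.06 to ALAS2. In LR animals HBB and EPB42 (0.75) and HBB and SLC4A1 (0.66) were highest. No pair passed the adjustment within either group of 10, where 3 pairs in HR and 5 in LR had an unadjusted permutation p under 0.05, and the difference of r between HR and LR was not tested. Without HR2835 the median r over all animals was 0.47, with 15 pairs positive and 0 passing the adjustment.

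**Figure D4:**
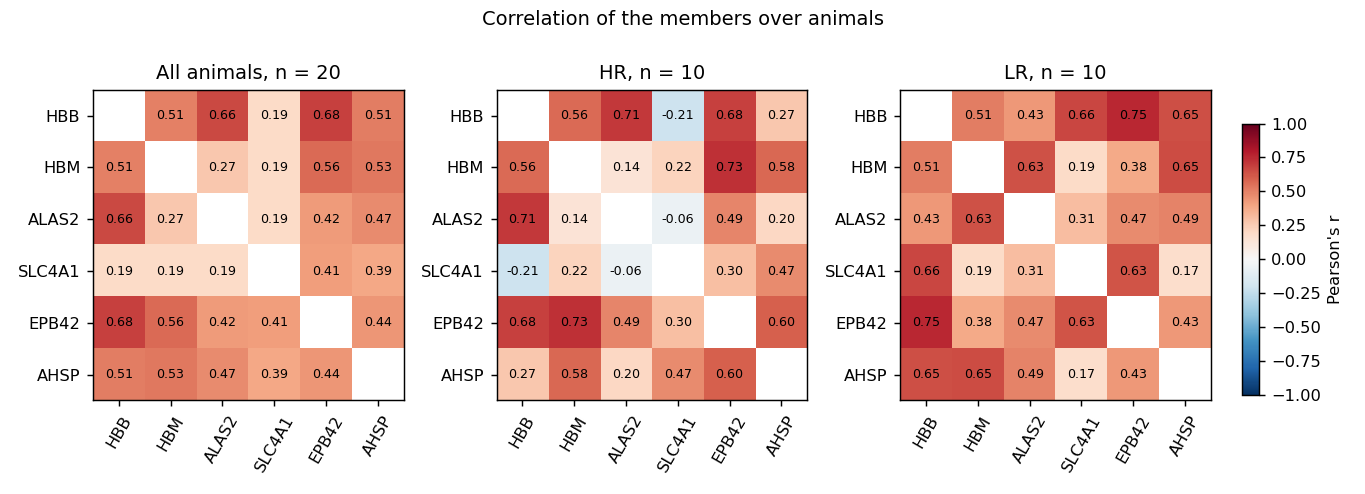
Pearson's r of each pair of members over all 20 animals (left), the 10 HR animals (middle) and the 10 LR animals (right), with the colour scale running from -1 to 1. All 15 pairs are positive over all animals, and the row of SLC4A1 is palest there, with r from 0.19 to 0.41.

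The array also held probe sets of other globins. HBZ, the embryonic zeta chain, averaged 5.56 ± 0.23 in HR and 5.52 ± 0.11 in LR animals (SD, n = 10 each), and its r with the index was 0.49. HBE1, the embryonic epsilon chain, had 2 probe sets of a similar level that went apart: number 012153 averaged 5.13 ± 0.33 in HR and 4.79 ± 0.35 in LR animals and had r = 0.67 with HBB and 0.72 with ALAS2, while number 012198 averaged 4.99 ± 0.15 in HR and 5.03 ± 0.20 in LR animals and had r = 0.18 and -0.10. Like HBB, the first was highest in HR2797 and lowest in LR2594. Whether it also reads HBB or a neighbouring globin was not tested.

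The probe set most like HBB had no gene in the annotation. Number 000676 had r = 0.93 with HBB over 20 animals, 0.94 within HR and 0.93 within LR, and 0.88 without the 2 farthest animals. It was lowest at 9.75, had a median of 10.74 and was highest at 11.96 in HR animals, against 9.16, 10.51 and 10.98 in LR animals. It shared its highest and lowest animal, HR2797 and LR2594, with HBB, and HR averaged 10.71 ± 0.66 against 10.39 ± 0.62 in LR (SD, n = 10 each). Its r was 0.68 with EPB42, 0.64 with ALAS2, 0.45 with AHSP, 0.38 with HBM and 0.23 with SLC4A1, the same order as the r of HBB with these genes. This probe set was singled out after its values were seen.

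Whether other transcripts followed the red cell index was asked with limma, with the index and the group in the model and 47714 probe sets other than those of the members. None passed an adjusted p of 0.05 in either direction (0%), while 3527 (7.39%) had a positive and 3433 (7.19%) a negative slope on the index at an unadjusted p under 0.05. With HBB alone in place of the index, 1 probe set passed, number 000676. Named genes were ranked apart from this model, by r with the index over all animals without the group as a term. The 10 highest were EMX2 (0.79), ATOH1 (0.77), SELH (0.76), BFSP1 (0.76), LOC100522080 (0.74), BEX5 (0.73), BATF3 (0.73), ADAMTS19 (0.73), STYK1 (0.73) and GJB1 (0.71). The 5 lowest were ACAP2 (-0.74), ID4 (-0.70), ZNF329 (-0.70), WDR93 (-0.69) and AQP4 (-0.69). EMX2, ATOH1 and ID4 are transcriptional regulators, and ACAP2 is a GTPase-activating protein of membrane traffic. None of the 15 is a gene of the erythroid lists below, and the smallest adjusted p over all genes was 0.158.

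Further genes of red blood cells and of other globins were then set against the index, each by its probe set of highest mean, beside a background of 13582 genes of which 58.7% had a positive r (median 0.09), 10.2% had a positive and 7.76% a negative slope at an unadjusted p under 0.05. Such slopes are called nominal here, and none of them passed the adjustment. The slopes and their p come from the fit with the group as a term, while r was taken over all animals without it. Of the measured globins other than members, the embryonic chains HBZ and HBE1 had r = 0.49 and 0.11, and HBZ was nominally positive (limma p = 0.0431). Without HR2835 r was 0.50 for HBZ and -0.004 for HBE1. CYGB and NGB, the cytoglobin and neuroglobin of other tissues, had r = 0.25 and 0.25, so that these set the median of the list (0.25, and 0.14 without HR2835). Of 16 membrane and skeleton genes the median r was 0.16, and 0.10 without HR2835. ACKR1, the Duffy chemokine receptor (r = 0.53), and GYPC, glycophorin C (r = 0.55), were nominally positive and ERMAP, an erythroid membrane protein (r = -0.47), nominally negative, and AQP1, the water channel, had r = 0.34 (p = 0.0533). SLC2A1, a glucose transporter, and ADD2, beta-adducin, those of highest signal in the list, had r = -0.02 and -0.04. Without HR2835 r was -0.32 for SLC2A1 and 0.003 for ADD2.

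Of 13 other genes of heme synthesis and its iron supply the median r was 0.12, with 3 nominally positive and 1 negative. SLC25A38, the mitochondrial glycine carrier (r = 0.50), UROD (0.43) and ALAD (0.34), enzymes of the heme pathway, were the positive ones, and TFRC, the transferrin receptor (-0.35), the negative one. FECH, which inserts iron into the ring, had r = 0.38 (limma p = 0.0725), and ALAS1, the form of the enzyme used outside the erythroid lineage, had r = 0.12. Without HR2835 the median r of this list was -0.04, against 0.04 for all genes.

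Of 8 erythroid transcription factors the median r was 0.20, with 0 nominally positive and HEMGN negative (r = -0.47, limma p = 0.0481). NFE2 had r = 0.48 and KLF1, which drives beta-globin expression, 0.12. Without HR2835 r was 0.48 for NFE2 and -0.03 for KLF1. Of 20 late erythroid and reticulocyte genes the median r was 0.11, with 2 nominally positive and 2 negative, and without HR2835 the median turned to -0.03. PRDX2, a peroxidase abundant in red blood cells (r = 0.68, limma p = 0.00168), and BLVRB (0.49) were the positive ones, and YOD1 (-0.48) and TRIM10 (-0.47) the negative ones. The PRDX2 probe set was of low signal, with a mean of 3.16 in HR and 3.10 in LR animals, and its detection was not tested. SELENBP1 and RNF10, those of highest signal in the list, had r = -0.01 and 0.34. Without HR2835 their r was -0.23 and 0.38. All of these p-values are unadjusted, and the smallest adjusted p in the erythroid lists was 0.280.

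Of 12 genes that clear hemoglobin and heme, 3 were nominally positive and 1 negative, with a median r of 0.18, and of 0.07 without HR2835. CD163, the macrophage receptor that takes up hemoglobin bound to haptoglobin, was the negative one (r = -0.63, -0.82 within HR and -0.59 within LR animals, limma p = 0.000298, adjusted p = 0.280). HMOX2, the constitutive heme oxygenase, FTL, the ferritin light chain, and BLVRA were the positive ones (r = 0.68, 0.40 and 0.36 in this order), while HMOX1, the inducible heme oxygenase, had r = 0.15. HP, haptoglobin itself, had r = -0.08.

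Markers of other blood cells and of the resident cells of the gland were compared in the same way. The median r was 0.13 for 11 platelet, 0.36 for 12 neutrophil and monocyte, 0.18 for 16 lymphocyte and 0.29 for 14 endothelial markers, and 0.14 for 7 markers of the adrenal cortex and 0.36 for 7 of the medulla. Without HR2835 the cortex median turned to -0.04 and that of the medulla was 0.40, against 0.18 for platelets, 0.30 for neutrophils and monocytes, 0.13 for lymphocytes and 0.23 for endothelium. CXCR2, a neutrophil chemokine receptor (r = 0.50), and ALOX5AP (0.38) were nominally positive, and 11 of 12 genes of that list had a positive r. Of the endothelial genes 5 of 14 were nominally positive and 0 negative, with EGFL7 (0.58) and PLVAP (0.52) first. In the medulla list 7 of 7 had a positive r and 3 were nominally positive, namely PNMT, the enzyme of adrenaline synthesis (0.53), DDC (0.50) and SLC18A2 (0.49), and in the cortex list 0 were nominal in either direction. Among lymphocyte genes CD3G (-0.54) and CD2 (-0.19) were nominally negative and CCR7 (0.62), GNLY (0.44) and CD8B (0.50) positive. With each group centred on its own mean, r of CD2 was -0.47. Of the platelet genes GP1BB (0.36) was nominally positive. In mean level, the neutrophil and monocyte list lay between 5.06 and 6.16 in HR and between 5.66 and 5.99 in LR animals, the medulla list lay between 9.32 and 10.1 in HR and between 8.93 and 10.2 in LR animals, and the endothelial list between 7.01 and 7.76 in HR and 7.41 and 7.66 in LR animals. Their part in the variation of the red cell index was not tested.

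**Figure D5:**
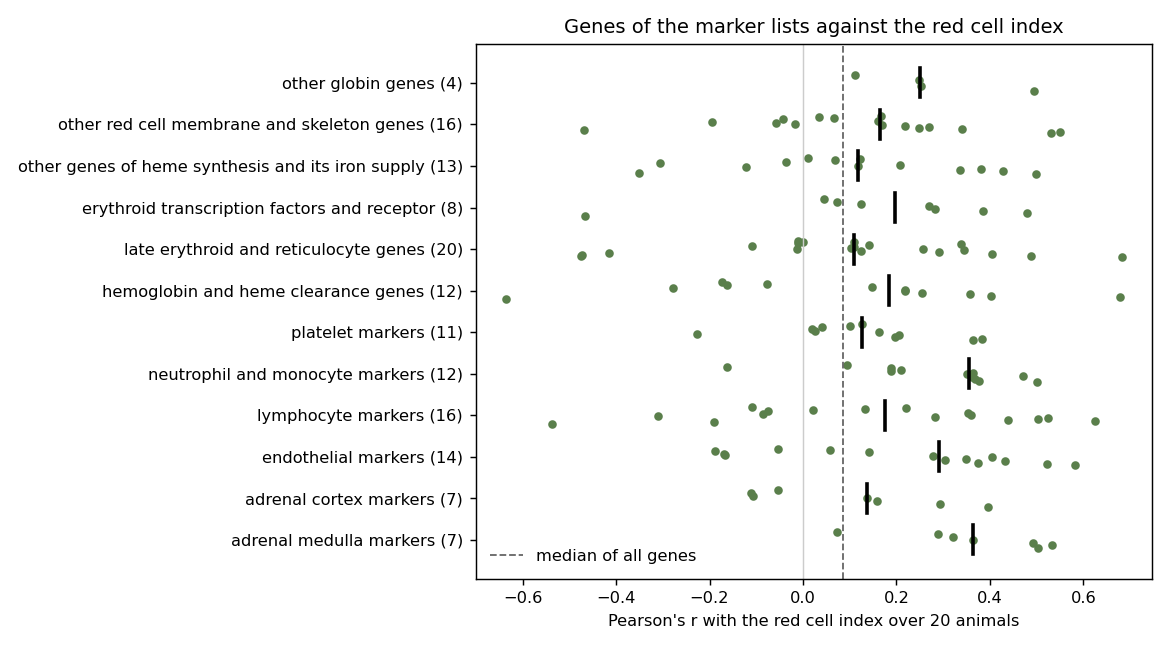
Pearson's r with the red cell index over 20 animals (horizontal axis) of each measured gene in 12 marker lists, 1 point per gene, with the number of genes in brackets, the list median as a black bar and the median of all genes as a dashed line at 0.09. The medians of the neutrophil and monocyte (0.36) and medulla (0.36) lists lie farthest to the right, and those of the erythroid lists lie between 0.11 and 0.20, with 0.25 for the other globins, 2 of which are not erythroid.

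Group differences over all probe sets were also fitted with the index in the model. The number that passed the adjustment was 0 with the index and 0 without it. At an unadjusted p under 0.05 there were 2048 probe sets with the index, against 1741 (3.65%) without it, and 910 were shared.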

How the data were processed

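Labelled cDNA from RNA of 20 adrenal glands, 10 HR and 10 LR, was hybridized to Snowball arrays, 1 per animal. The groups were taken from the animal names in the labels. The authors ran GCOS 1.1.1 on the scans and RMA in Expression Console, and the deposited log2 values were used as given. The array number limits the precision. The authors' detection filter needs probe intensities and was not applied. Of 47845 probe sets, 123 controls were left out, and 26426 had 1 gene symbol, 21296 none and 0 several in the array's annotation, which can be old. Positions are those of RefSeq Sscrofa11.1, matched by symbol. Each gene was represented by its SNOWBALL probe set of highest mean.

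The group comparison was a limma 3.58.1 fit without covariates (lmFit, then eBayes, in R 4.3.3), adjusted by Benjamini-Hochberg over all 47722 probe sets, with a threshold of 0.05. Probe sets were fitted on the red cell index with the group as a term. Correlations used two-sided permutation tests with 100000 resamples in Python 3.11.15. Both scripts were tested on simulated data. Alternatives were other scalings, variance models, array weights, a filter on low values, other forms of the index, Spearman's rho, and leaving out each animal.

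Members, lists and tests were chosen with earlier results of these data known. Named are the members, the 10 genes with the highest and the 5 with the lowest r with the index, and per list up to 4 genes with the smallest p and the 2 of highest mean, of which a part is printed. Genes named beyond that rule were chosen after their values were seen. The report names each list and the number of its measured genes. Columns of samples not used numbered 0.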

Additional observations from a re-analysis of the deposited data

Results flagged for a closer look

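The 6 genes and 2 second probe sets, with the index, gave 18 groups of 10 animals in which the highest or lowest animal was compared with the others, and in 2 of them the gap passed Dixon's 95% criterion, which chance passes in about 1 in 20 groups. In AHSP among LR animals, LR2016 was the highest at 3.77, and its gap to the next animal was 0.469 of the range of the group. Without LR2016 the difference HR minus LR in AHSP was 0.38. In the second SLC4A1 probe set among HR animals, HR2978 was the highest at 2.71, with a gap of 0.527 of the range. HR2978 was also the highest animal in the first SLC4A1 probe set.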

How the results depend on the processing

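The count of probe sets called between HR and LR was 0 under each of 26 alternatives. ALAS2, AHSP, HBB and SLC4A1 kept a higher mean in HR under every alternative that gave them a value, with the adjusted p of each member from 0.606 to 1.0. Leaving out 1 animal at a time gave 0.30 to 0.46 for ALAS2, 0.25 to 0.38 for AHSP, 0.17 to 0.35 for HBB and 0.06 to 0.15 for SLC4A1. HBM turned to 0.0038 with quantile normalization and to 0.029 with array weights, and ranged from -0.030 to 0.029 over left-out animals. EPB42 turned to -0.0082 with quantile normalization and ranged from -0.026 to 0.034. The cause was not tested. The difference of the index was 0.50 with members scaled to SD 1, a change of unit, 0.098 with the median of the members, 0.28 with HBB alone, and 0.13 to 0.21 over left-out animals.

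The count of pairs that passed the adjustment was 2, and 0 with Spearman's rho, within HR, within LR, without the 2 farthest animals and with quantile normalization. It ranged from 0 to 3 over left-out animals: 0 without HR2593, HR2797, HR2835, LR2594, LR2611, LR2635, LR2789 or LR2793, and 1 without HR2857, HR2900, HR2965, LR2016, LR2579 or LR2790. Within HR, r turned to -0.21 for HBB with SLC4A1 and to -0.058 for ALAS2 with SLC4A1. Probe sets that followed the index numbered 1 with HBB alone and 0 to 1 over left-out animals, the 1 being without HR2978. EPB42, SLC4A1 and AHSP lie under the median level, so that the filter on low values gave no value for them. No paired analysis was possible because the groups share no replicate numbers. Among the member probe sets only the first of HBB lay above the range of the background controls. That range also held the median level of all probe sets (4.78). How far the other member probe sets stood above background was not tested.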
